A study of Mus musculus with 2 samples.

Results

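The sarcomere is held in register by protein lattices at its ends and centre, and 42 genes that encode these lattices were examined in regenerating mouse muscle of wild type mice and of mice labelled as lacking the transcription factor MEF2A. They are the genes of the Z-disc, the costamere and the M-band, and the dystrophin complex was left out. They were chosen by symbol, with earlier results of these data known. All 42 were on the array, of 19938 genes in all, and all 42 were measurable. Total RNA came from tibialis anterior muscle of mice of 129Sv/C57BL6 background, of both sexes and 2 to 4 months old, 7 days after an injection of 10 µM cardiotoxin in a volume of 50 µl. Cardiotoxin is a venom peptide that destroys muscle fibres and spares the satellite cells that rebuild them. The wild type pool (Mef2a +/+) and the labelled knockout pool (Mef2a -/-) each held equimolar RNA of 5 injured muscles, and no uninjured muscle was analysed here. The labels name no promoter or cell type that would limit the knockout to fibres, so other cells of the muscle carried it too as labelled. Each pool was hybridised to 1 array, so no value below has a replicate error and no test was possible.

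Values are log2 expression values per probe set, the group of short probes that stands for a gene on the array. A step of 1 is a doubling of signal, and a difference is labelled knockout minus wild type, so that a negative one means less in the knockout RNA. Paired values give wild type first. Probe sets differ in how strongly they bind, so levels were not compared between genes. A gene counted as measurable if at least 1 of its values was 4.39 or more, the median of the whole table, which left 11787 genes. Over these the differences had a median of 0.03 and a robust SD of 0.28. For Mef2a the values were 8.92 in wild type and 9.06 in labelled knockout RNA. The labels do not give the deleted part of the gene, so this value does not check the genotypes and each direction below rests on the labels alone.

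The Z-disc is the boundary between sarcomeres, where alpha-actinin crosslinks actin filaments of opposite polarity. The costamere ties the outermost Z-discs to the fibre membrane through vinculin, integrins and the desmin filaments. The M-band crosslinks the myosin filaments in the middle of the sarcomere, and titin spans from Z-disc to M-band. Many of these proteins also sense load, and MEF2 factors are known as activators of structural genes of the fibre. In cardiotoxin injury this whole lattice has to be rebuilt in new fibres.

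The lattice genes were lower by small amounts in the labelled knockout pool. Of the 42, 37 had a negative difference and 5 a positive difference, against 44.5% of all measurable genes with a negative difference. Their median difference was -0.22, a level 1.17-fold lower, beside a median of 0.03 over all measurable genes. The share with a negative difference was 88.1% for the 42 genes, and 39.5% for the 6259 genes whose higher value reached 6.18, the 75th percentile of the table, as 41 of the 42 did. At a limit of 1.2-fold, 15 of the 42 were lower and 0 higher, beside 14.2% of measurable genes lower and 21.5% higher. Past 1.5-fold only Nmrk2 was lower and no member was higher, beside 1.90% of measurable genes lower and 6.45% higher. That single gene is 2.38% of the 42, a share near the background.

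**Figure D1:**
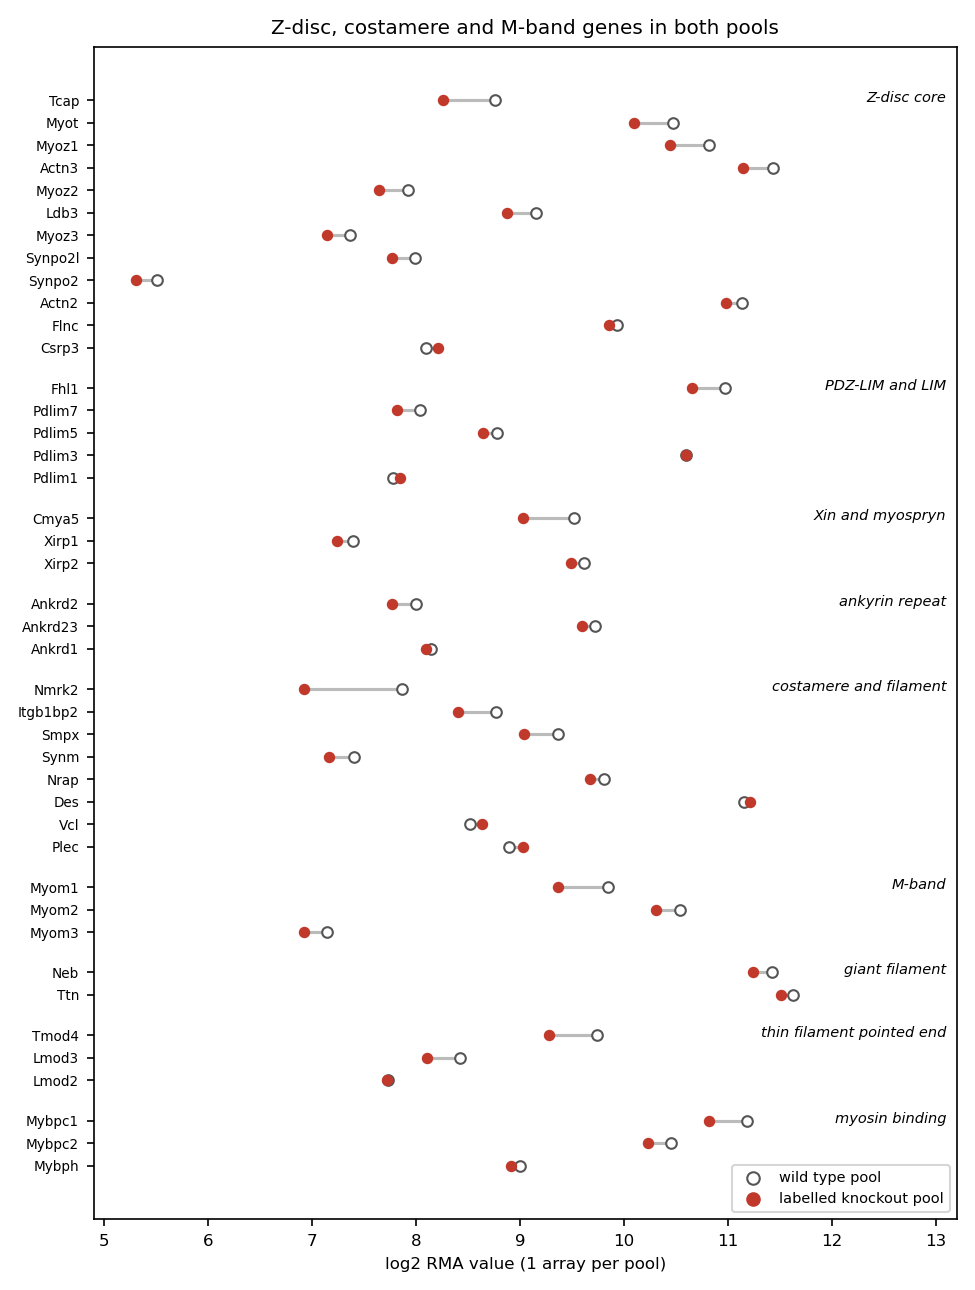
The log2 RMA value of each of the 42 genes is plotted for the wild type pool (open circles) and the labelled knockout pool (filled circles), 1 array each, by role. The filled circle lies to the left of the open circle for 37 genes, and the widest gap is that of Nmrk2, from 7.86 to 6.92.

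Nmrk2 stood apart from the other members. It encodes nicotinamide riboside kinase 2, a muscle enzyme of NAD synthesis that also binds the integrin beta 1 chain and is therefore counted with the costamere. It read 7.86 in wild type and 6.92 in labelled knockout RNA and so differed by -0.94 or 1.92-fold. Its difference was the 26th from the lowest among the 11787 measurable genes, and 0% of the 500 genes nearest to it in mean level had a lower one. The next members, Tcap and Cmya5, both at -0.50, lay inside the 1.5-fold limit of 0.585. Without Nmrk2, the median of the remaining 41 genes was -0.22. Of the 42 genes, 41 had a single probe set, so the value of Nmrk2 rests on 1 measurement in each pool.

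**Figure D2:**
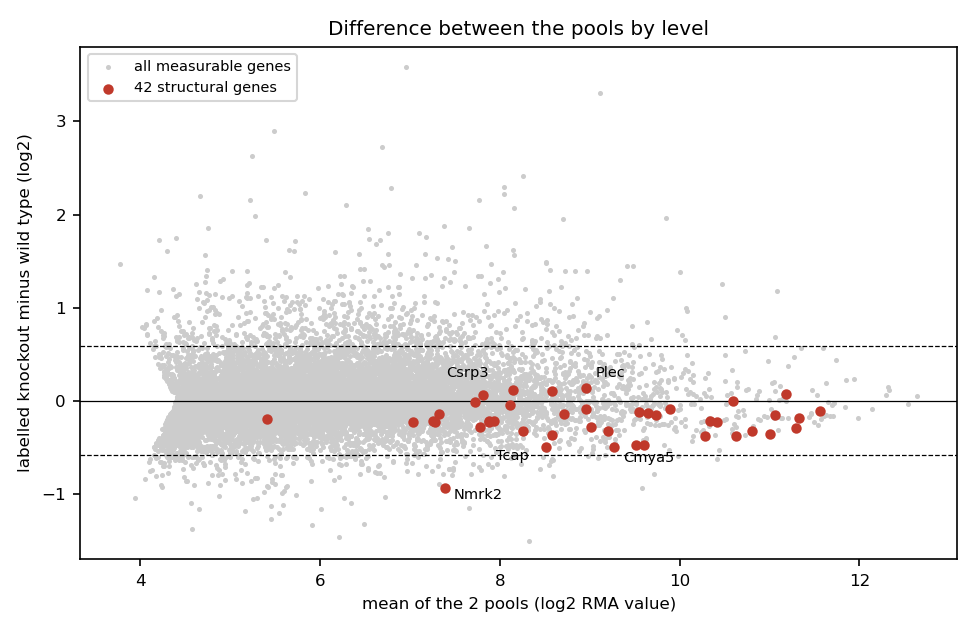
The difference between the pools in log2 units is plotted against the mean of both pools for all 11787 measurable genes (grey) and the 42 structural genes (red), with dashed lines at 1.5-fold. The structural genes other than Nmrk2 lie between -0.50 and 0.14, 36 of these 41 below zero, and Nmrk2 at -0.94 is outside the dashed lines.

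MEF2 factors bind a known sequence, and the promoters of the members were read for it. RefSeq windows of 300 bases, from 250 before to 50 after a transcript start on GRCm38.p6, were matched by symbol for 31 of the 42 genes. A match to the 10-letter MEF2 consensus, which reads alike on both strands, occurred in 6 of the 31 genes (19.4%). Among all genes with a window 3.70% held it (3.19% of single windows), and among measurable genes with a window 2.30% did. The 6 genes were Myoz2, Myom3, Xirp2, Synpo2l, Ttn and Synpo2. They are shown because they are the members with these letters close to the start. The 10 matching letters are in capitals, read 5′ to 3′ on the strand of the gene and cut off before the start, and positions count back from it. The stretches are Myoz2 chr3:123034988-123035045 (minus strand, match from position -33), Myom3 chr4:135759655-135759714 (plus strand, match from position -35), Xirp2 chr2:67445903-67445962 (plus strand, match from position -74), Synpo2l chr14:20668429-20668488 (minus strand, match from position -109), Ttn chr2:76982679-76982738 (minus strand, match from position -166) and Synpo2 chr3:123236351-123236399 (minus strand, match from position -236).
Myoz2: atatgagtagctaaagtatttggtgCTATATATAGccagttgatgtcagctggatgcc
Myom3: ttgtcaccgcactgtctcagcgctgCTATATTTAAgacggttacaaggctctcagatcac
Xirp2: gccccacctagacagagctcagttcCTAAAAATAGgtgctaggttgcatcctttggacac
Synpo2l: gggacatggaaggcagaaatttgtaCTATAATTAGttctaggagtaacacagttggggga
Ttn: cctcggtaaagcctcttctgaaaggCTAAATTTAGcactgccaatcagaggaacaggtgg
Synpo2: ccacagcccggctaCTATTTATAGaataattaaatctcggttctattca

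These 6 genes were not the members with the largest differences. Their differences ran from -0.28 in Myoz2 to -0.11 in Ttn, with a median of -0.21. The other 25 genes with a window had a median of -0.15 and ran from -0.94 in Nmrk2 to 0.12 in Csrp3. The range of the 6 genes lay within that of the other 25. Members without a window could not be read for the consensus and ran from -0.50 in Tcap to 0.14 in Plec. Myoz1 (-0.38), Myot (-0.38) and Itgb1bp2 (-0.37) were also among those unread members. Across measurable genes the median was -0.03 for the 216 with the consensus and 0.03 for those without. The match of Myoz2 shares bases with the letters TATATA, which can also serve as a TATA box at that distance. Synpo2l has a further match from position -144 of a second, more internal start. A match is a description of letters, and binding was not measured here. Sites outside the windows or with other letters were not searched for, so a gene without a match may still have a site.

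The CArG box, the binding sequence of the serum response factor that also drives muscle genes, matched in 4 of the 31 genes (12.9%), beside 1.81% of all genes with a window and 1.63% of single windows. No gene held both motifs. The 4 genes are shown as the second set of members with a muscle factor's letters near the start, with the 10 letters in capitals. The stretches are Ldb3 chr14:34588682-34588741 (minus strand, match from position -35), Myom1 chr17:71019433-71019492 (plus strand, match from position -99), Fhl1 chrX:56779556-56779615 (plus strand, match from position -102) and Vcl chr14:20929148-20929205 (plus strand, match from position -227).
Ldb3: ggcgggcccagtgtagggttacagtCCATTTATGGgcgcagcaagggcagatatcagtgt
Myom1: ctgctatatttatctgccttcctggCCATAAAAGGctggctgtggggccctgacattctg
Fhl1: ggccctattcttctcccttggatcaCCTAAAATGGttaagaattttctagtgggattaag
Vcl: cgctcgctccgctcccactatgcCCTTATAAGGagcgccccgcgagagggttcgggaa

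The 4 genes had a median of -0.30, beside -0.15 for the other 27 with a window. Myom1 was at -0.48, Fhl1 at -0.32, Ldb3 at -0.28 and Vcl at 0.11, so that 3 were lower and 1 higher. The MCAT element CATTCC, read on both strands, was present in 8 of the 31 genes (25.8%), beside 16.6% of all genes and 14.7% of single windows. Those 8 had a median of -0.09 with the lowest at -0.22, beside -0.23 for the 23 without it. The E-box CANNTG, which myogenic factors bind, was present in 25 (80.6%), beside 75% of all genes and 72.3% of single windows. Those 25 had a median of -0.20, beside -0.15 for the 6 without it. The lowest members with a window, Nmrk2 and Cmya5, held no exact match to the MEF2 consensus or the CArG box in it. The 250 bases before their starts, chr10:81202038-81202287 for Nmrk2 and chr13:93144725-93144974 for Cmya5, both on the minus strand, are shown for that reason, with their E-boxes in capitals.
Nmrk2: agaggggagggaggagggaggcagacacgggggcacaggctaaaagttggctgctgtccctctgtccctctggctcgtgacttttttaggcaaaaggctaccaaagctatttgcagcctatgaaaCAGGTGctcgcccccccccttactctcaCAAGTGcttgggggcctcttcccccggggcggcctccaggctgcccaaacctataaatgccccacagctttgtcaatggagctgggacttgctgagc
Cmya5: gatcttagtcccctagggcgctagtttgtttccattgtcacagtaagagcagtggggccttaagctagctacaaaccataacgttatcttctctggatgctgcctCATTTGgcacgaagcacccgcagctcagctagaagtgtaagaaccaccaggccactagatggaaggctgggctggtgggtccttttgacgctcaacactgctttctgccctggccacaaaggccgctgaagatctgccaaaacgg

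**Figure D3:**
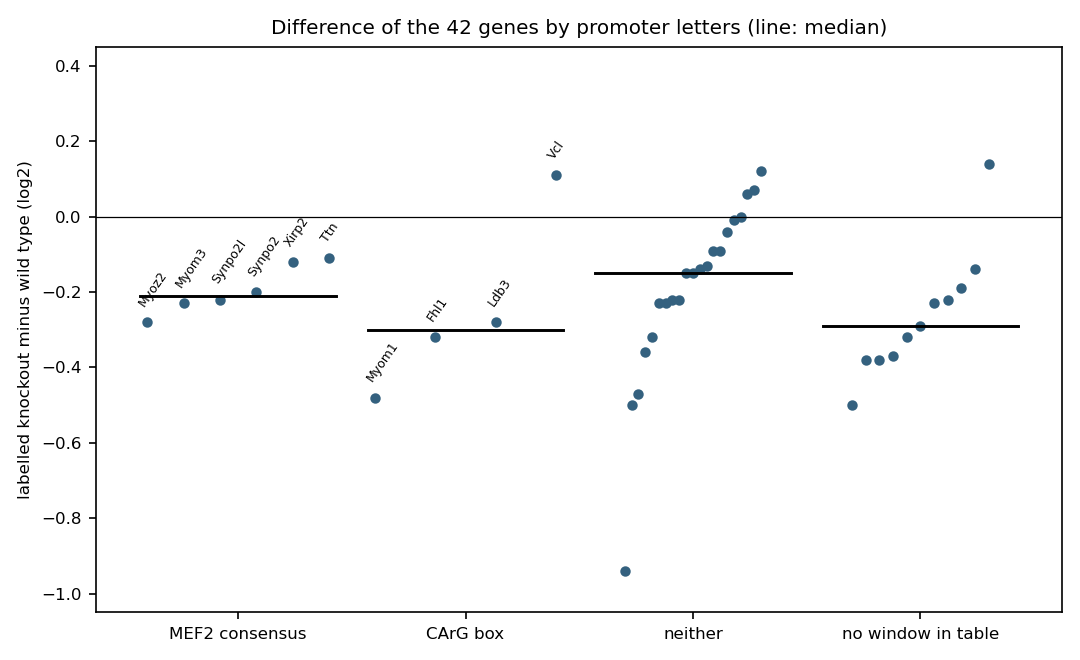
The difference between the pools of each of the 42 genes (log2) is plotted by whether its promoter window holds a MEF2 consensus (6 genes), a CArG box (4), neither (21) or has no window in the table, with the median as a line. The genes with a MEF2 consensus lie between -0.28 and -0.11, inside the range of the genes with neither motif, which starts at -0.94.

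Among the genes of the Z-disc core, 11 of 12 were lower, with a median of -0.25. Tcap, the telethonin gene whose product caps the end of titin at the Z-disc, read 8.76 in wild type and 8.26 in labelled knockout RNA and so differed by -0.50. Myot encodes myotilin, which bundles actin, and read 10.47 and 10.09 in the same order. Ldb3, the gene of the alpha-actinin binder ZASP or cypher, read 9.15 and 8.87. These 3 were lower by 1.22-fold to 1.41-fold. The alpha-actinin of fast fibres, Actn3, was at 11.43 and 11.14 (-0.29), and Actn2, made in all fibres, at 11.13 and 10.98 (-0.15). Both actinins were thus lower, the fast form by the larger amount, though neither passed 1.5-fold.

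The myozenins tether calcineurin to alpha-actinin. Myoz1, the form of fast fibres, read 10.82 in wild type and 10.44 in labelled knockout RNA. Myoz2, the form of slow fibres and heart, read 7.92 and 7.64, and Myoz3 read 7.36 and 7.14. The differences of -0.38, -0.28 and -0.22 all went the same way, for fast and slow forms alike. Myoz1 lies beside Synpo2l on the chromosome and Myoz2 beside Synpo2, with no protein-coding gene between them in the RefSeq table. Synpo2l, the gene of an actin-binding protein of the Z-disc, read 7.99 and 7.77 (-0.22). Synpo2, its relative also called myopodin, read 5.51 and 5.31 (-0.20). In both neighbour pairs the myozenin had the larger difference.

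Flnc and Csrp3 were the Z-disc core genes nearest to or above zero. Flnc, filamin C, which is recruited to damaged Z-discs, read 9.93 in wild type and 9.85 in labelled knockout RNA (-0.09). Csrp3, the muscle LIM protein that is known to be induced by injury and load, read 8.09 and 8.21, a difference of 0.12. It was the only member of the Z-disc core that was higher in the labelled knockout pool.

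The PDZ-LIM proteins bind alpha-actinin with one end and signalling proteins with the other. Fhl1, a LIM-only gene whose mutation causes myopathy, read 10.97 and 10.65 in the wild type and labelled knockout pools, a difference of -0.32. Pdlim7, the gene of enigma, was at 8.04 and 7.82 (-0.22), and Pdlim5 at 8.78 and 8.64 (-0.14). Pdlim3, the muscle ALP gene, read 10.59 in both pools, and its difference, negative but rounding to 0.00, is counted among the 37. Pdlim1, a form found in many cell types, was the only member with more than 1 probe set. The probe set of highest mean read 7.78 and 7.84 (0.06) and the other 7.82 and 7.76 (-0.06), so no direction can be given for it. With a median of -0.14 over 5 genes, this family was nearer to zero than the Z-disc core.

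Cmya5 stood out among the large scaffold genes. It encodes myospryn, a binder of desmin and alpha-actinin and a known target of MEF2A, and read 9.52 in wild type and 9.03 in labelled knockout RNA and so differed by -0.50. Of the 500 measurable genes nearest in level, 2.6% had a lower difference. The Xin genes encode actin-binding repeat proteins of the Z-disc edge and of sites of fibre damage. Xirp1 read 7.39 and 7.24 (-0.14) and Xirp2, another known MEF2A target, 9.61 and 9.49 (-0.12). Both Xin genes differed by far less than the myospryn gene.

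The muscle ankyrin repeat proteins bind titin in the I-band and move to the nucleus under load. Ankrd2 was at 8.0 and 7.77 in the wild type and labelled knockout pools (-0.23), Ankrd23 at 9.72 and 9.59 (-0.13), and Ankrd1, the cardiac ankyrin repeat gene that is induced by injury, at 8.14 and 8.09 (-0.04). All 3 were lower, with none past 1.2-fold.

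The costamere and filament genes were the most divided group, with 5 of 8 lower and 3 higher. Besides Nmrk2, Itgb1bp2 read 8.77 in wild type and 8.40 in labelled knockout RNA (-0.37). It encodes melusin, which binds the integrin beta 1 tail as the Nmrk2 product does. Smpx, the gene of a small protein of the costamere that responds to stretch, was at 9.36 and 9.04 (-0.32). Nrap, an actin and vinculin binder of myotendinous junctions and growing myofibrils, was at 9.81 and 9.67 (-0.15). The genes of both integrin binders, Nmrk2 and Itgb1bp2, thus had the lowest differences of this group.

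The filament and linker genes were near zero or above it, apart from Synm. Synm, the synemin gene whose product joins desmin filaments to the costamere, read 7.40 and 7.16 in the wild type and labelled knockout pools (-0.23). Des, desmin, the main intermediate filament of the fibre, read 11.15 and 11.21 (0.07). Vcl, vinculin, was at 8.52 and 8.63 (0.11), and Plec, plectin, which links filaments to membranes, at 8.89 and 9.03 (0.14). Vinculin and plectin are made in many cell types, and the 20 macrophage markers measured in the same RNA had a median difference of 1.09. The part of other cells in the values of Vcl, Plec and Pdlim1 was not tested.

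All 3 M-band members were lower. Myom1, myomesin 1, which crosslinks myosin filaments in every fibre, read 9.84 in wild type and 9.36 in labelled knockout RNA and so differed by -0.48. Myom2, the form of fast fibres, was at 10.54 and 10.31, and Myom3 at 7.14 and 6.92, both at -0.23. The myomesin common to all fibres thus had the largest difference of the 3.

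The giant proteins differed little. Ttn, titin, the elastic filament, read 11.62 in wild type and 11.51 in labelled knockout RNA (-0.11), and Neb, nebulin, which runs along the thin filament, 11.42 and 11.24 (-0.19). Tmod4, the tropomodulin that caps thin filaments in skeletal muscle, was at 9.74 and 9.28 (-0.47). The leiomodins nucleate and lengthen thin filaments. Lmod3, the skeletal form, read 8.42 and 8.10 (-0.32) and Lmod2, prominent in heart, 7.73 and 7.72 (-0.01). The pointed-end genes therefore ran from near zero to 1.38-fold lower.

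Myosin binding proteins sit on the thick filament. Mybpc1, the slow form, read 11.18 in wild type and 10.82 in labelled knockout RNA (-0.36), and Mybpc2, the fast form, 10.45 and 10.23 (-0.22). Mybph, a shorter relative, was at 9.0 and 8.91 (-0.09). Among forms named here by fibre type, slow ones (Mybpc1, Myoz2) and fast ones (Mybpc2, Myoz1, Actn3, Myom2) were both lower. Whether the differences of the members sort by fibre type was not tested.

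Other genes of the same structures, from a list of 68 with 65 on the array, went both ways. Of 63 measurable ones, 35 were lower and 28 higher, with a median of -0.07, beside 44.5% of all measurable genes with a negative difference. By at least 1.5-fold none were lower and 4 higher, beside 1.90% and 6.45% of all measurable genes. Those 4 are a share near the background. The 10 other M-band genes resembled the members in direction, with 9 lower and a median of -0.25. Among them were Trim54 (-0.56) and Trim63 (-0.55), ubiquitin ligases of the MuRF family, whose relative Trim55 was at -0.12. Unc45b (-0.47), a myosin chaperone, and Speg (-0.43), a kinase of the triad and sarcomere, were also lower. Nbr1 (0.01) and Sqstm1 (-0.08) were near zero. Trim63, Unc45b and Speg were picked after their values were seen. Chaperones linked to the Z-disc were lower in 8 of 9, with a median of -0.14. Hspb2 was at -0.58 and Cryab, the crystallin that protects desmin, at -0.34, while Hspb7 was higher at 0.28. Of the 23 costamere adhesion genes, 8 were lower and 15 higher, with a median of 0.15. Ank2, the ankyrin B gene, was the lowest of these at -0.58. It read 6.5 and 5.92 in the wild type and labelled knockout pools.

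Several relatives of the members that are used outside fibres were higher. Actn1, an alpha-actinin of stress fibres, read 6.82 in wild type and 7.73 in labelled knockout RNA and so differed by 0.91, and Actn4, chosen after its value was seen, was at 8.89 and 9.39 (0.50). The muscle forms Actn2 and Actn3 were at -0.15 and -0.29. Csrp2, a LIM gene of smooth muscle and fibroblasts, was at 6.93 and 7.78 (0.85), beside 0.12 for Csrp3. Vim, vimentin, the filament of mesenchymal and immune cells, also chosen after its value was seen, was at 11.06 and 11.63 (0.57), beside 0.07 for Des. Tmod3, the widespread tropomodulin and a further such choice, differed by 0.38, beside -0.47 for Tmod4. In these families, picked after their values were seen, the muscle form had the lower difference. Tmod1 (-0.13) and Fhl3 (-0.11), also relatives of members, were not higher, so the pattern does not hold for every relative. Fblim1, a filamin-binding adhesion gene, was 2.41-fold higher (4.58 and 5.84), with a wild type value close to the floor of 4.39. Capza1, an actin capping gene with 2 probe sets, was 1.56-fold higher by its probe set of highest mean (8.06 and 8.71). The other actin capping genes of the list, Capza2 (0.08) and Capzb (-0.04), differed little.

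**Figure D4:**
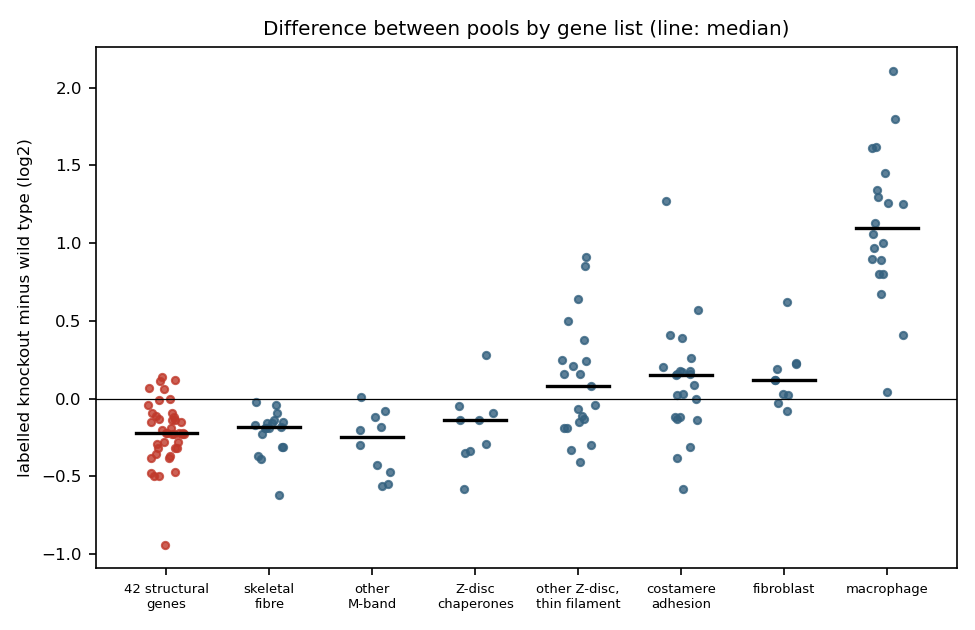
The difference between the pools (log2) is plotted for each measurable gene of 8 lists, with the median as a line. The 42 structural genes (median -0.22) and the skeletal fibre markers (-0.19) lie at like height, the costamere adhesion genes (0.15) above zero and the macrophage markers (1.09) well above them.

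Without a correction for level, markers of the fibre itself were lower by about as much as the members. All 18 were well above the floor and all 18 had a negative difference, with a median of -0.19 and a range from -0.62 for Myh2, a fast myosin, to -0.02 for Myl1, an essential light chain. Acta1, skeletal actin, read 12.56 and 12.52 in the wild type and labelled knockout pools (-0.04), Ckm, muscle creatine kinase, 12.07 and 11.89 (-0.18), and Myh4, the fastest myosin, 11.71 and 11.55 (-0.15). Tnnt3, Tnni2 and Tnnc2, the fast troponin subunits, differed by -0.17, -0.31 and -0.19. The calcium genes Atp2a1, Casq1, Ryr1, Cacna1s and Pvalb lay between -0.39 and -0.09. The remaining markers Myh1, Mylpf, Pygm, Eno3 and Pgam2 lay between -0.37 and -0.14. Of the 42 members, 34 lay within the range of these 18 markers and 24 below their median. Summed on the linear scale, the signal of the 18 markers was 51700 in wild type and 46300 in labelled knockout RNA, a ratio of 0.895. For the 42 members the sums were 38300 and 33200, a ratio of 0.866. In RNA of whole muscle, fewer fibres and less of these transcripts per fibre cannot be told apart.

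Of the markers of other cells in the same RNA, those of macrophages differed most, and upwards. The summed signal of 20 macrophage markers was 4220 in wild type and 9460 in labelled knockout RNA, with all 20 higher and 11 at least 2-fold higher. Of all 11787 measurable genes, 6288 were higher and 200 at least 2-fold higher. Msr1, a scavenger receptor, was 4.31-fold higher, Itgam, a myeloid integrin gene, 3.48-fold, and Lgals3, galectin 3, 3.07-fold. The 10 fibroblast markers had a median of 0.12 and sums of 14700 and 16400, the 8 endothelial markers a median of -0.02, and 6 measurable smooth muscle and pericyte markers a median of 0.07. Of the 9 markers of young fibres, 5 were lower and 4 higher (median -0.06), from -0.63 for Myh8, the neonatal myosin, to 0.23 for Chrng, the fetal acetylcholine receptor subunit. All 7 lymphocyte and all 7 neutrophil markers on the array lay below the floor in both pools, as did 6 of 7 heart markers. The part of the makeup of the tissue in the members' differences was not tested.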

How the data were processed

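Expression was measured in 2 pooled RNA samples on 1 array each, and the 42 members and all lists were chosen with earlier results of these data known. The authors deposited log2 values per probe set. Per the submitters' processing notes, these come from RMA and Affymetrix Expression Console. RMA corrects background, equalises the distributions of the arrays by quantiles and summarises probes, so a change shared by most genes cannot be seen. After sorting, no value of an array is further than 0.139 from its counterpart. Program versions are not given in the sources used, no detection calls were used, and the number of arrays limits the precision.

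Of 35557 probe sets, 21789 had 1 gene symbol in the platform annotation, 1621 several and 12147 none. Only the first were used, with the highest-mean probe set standing for a gene. Differences and counts were computed with pandas 2.3.3 and numpy 2.4.6 under Python 3.11.15, and a loess trend on level (span 0.3) with statsmodels 0.14.6. The code was tested on simulated data. All 42 members are named, and of the other genes of these structures those past 1.5-fold or among the largest differences. Of the marker lists, every fibre marker is named, and up to 3 per list past 2-fold. Other genes named were chosen after their values were seen. Promoter windows are RefSeq's, on GRCm38.p6. The alternatives tried were centring, loess, the mean of all probe sets, other floors and fold limits, probe sets with several symbols, and a shorter promoter window.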

Additional observations from a re-analysis of the deposited data

How the results depend on the processing

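The median of the 42 members ran from -0.25 to -0.22 over all alternatives tried. The number with a negative difference was 37 after centring on the median of measurable genes, 36 after the loess correction, 38 when all probe sets of a gene were averaged and 36 of the 41 that reached the floor at the 75th percentile. No member moved by more than 0.07. The number lower than the fold limit was 15 at 1.2-fold, 0 at 2-fold and 0 without Nmrk2, an alternative chosen after seeing the data. The median of the other Z-disc and thin filament genes, 0.08, turned to -0.04 with no floor and to -0.04 with the floor at the 75th percentile, with 23 and 19 genes entering in place of 21. The macrophage median moved to 1.25 with that higher floor, which left 17 markers. After the loess correction the median of the 18 fibre markers was -0.15 in place of -0.19. That of the 42 members was then -0.25 in place of -0.22, so the gap to the fibre markers was wider. The trend was fitted to all genes, these included, so the fit itself can change this gap. Probe sets with several symbols changed no member's value, and the shorter promoter window changed the MCAT count from 8 to 7 and no other motif count. No paired analysis was possible because each genotype has 1 array. Leaving out an array would leave no comparison. The signal over background and the spread between mice are unknown, so a difference of the size seen in most members has no error of its own.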

Other observations

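Myo18b, the gene of an unconventional myosin needed for sarcomere assembly, has 20 probe sets on the array, and all 20 were lower in the labelled knockout pool. Their differences ran from -0.54 to -0.19, with a median of -0.36 and an SD of 0.10 between probe sets. The probe set of highest mean that stood for the gene differed by -0.19, the smallest size of the 20, while the mean of all probe sets differed by -0.35. Among 160 genes with at least 3 measurable probe sets, the median SD of the difference between probe sets of the same gene was 0.08. Such probe sets share the RNA and the array, so this SD leaves out the spread between mice and between arrays. Myo18b was singled out after its values were seen.

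A total of 254 measurable genes had the same value in both pools to the last digit, as did 1961 of the 35557 probe sets, and 0 of the 42 members did.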
